A study of Sus scrofa with 32 samples.

Results

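The genes described here are those of the pig testis whose names mark them as part of the cell division machinery. They are the cyclins of families A, B, D and E, the numbered cyclin-dependent kinases, and the CDC, MCM, BUB, AURK, PLK, KIF and ORC families, together with MKI67, TOP2A and PCNA. Of 25322 gene identifiers in each deposited table, 11804 could be paired with a symbol. The name rule found 112 symbols after 8 relatives of CDC42 were dropped, and 111 of them had at least 10 counts in total and are the members. CDCP2 fell below that minimum. Symbols for MKI67, PCNA, CCNA2, the D-type cyclins, CDK2, CDK6, AURKA, AURKC, CDC25C, MCM6 and MCM7 were paired with no identifier, and these genes were not analysed here.

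Messenger RNA was sequenced from the testis of 32 male pigs, Danish crosses of Duroc with Landrace and Yorkshire, slaughtered near 100 kg; their age was not given. The submitters placed 31 of them in a High AS or a Low AS group, where AS stands for androstenone and skatole, the compounds behind boar taint. On the control diet were 10 of the High AS and 7 of the Low AS animals, and 7 of each received chicory, the additive being 15% of the feed for the last 3 days. Androstenone ran from 0.67 to 7.77 mg/kg (median 1.8) in High AS pigs and from 0 to 1.07 mg/kg (median 0.54) in Low AS pigs, so the groups overlapped on it. One further chicory pig had no AS group and entered no comparison. The pigs came from 14 sows, so pigs of the same sow are among the replicates.

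Male germ cells divide in distinct ways. Spermatogonia multiply by mitosis, their daughters copy their DNA once more before meiosis, and spermatocytes then pass through a pair of meiotic divisions to give round spermatids, which no longer divide and elongate into sperm. Origins of replication are licensed when ORC proteins and CDC6 load the MCM helicase, which CDC45 helps to activate. Cyclin E and CDK4 act on the way into S phase, cyclin B with CDK1 drives entry into either kind of division, PLK1 and AURKB steer the spindle and the chromosomes, and the BUB proteins hold anaphase until CDC20 and the anaphase-promoting complex release it. Many kinesins named KIF move cargo or build cilia and flagella and take no part in division.

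Members were described by role. Replication and licensing had 15 members, the G1 to S step 4, the G2 to M step 11, chromosome segregation 19, and the meiotic and male germ cell role 6. A further 17 were other cyclin-dependent kinases and their partners, and 25 were transport and ciliary kinesins. The remaining 14 were in no role list, CDK3, PLK2 and PLK3 among them. Replication and G1 members are read as spermatogonial here because dividing spermatogonia and cells entering meiosis copy DNA, while the G2 to M and segregation members serve both mitosis and meiosis. Counts in all members made up 0.622% to 1.15% of the counts in genes of a pig, and 101 of the 111 had counts in each of the 32 pigs. Levels are given as CPM, counts scaled to the size of the library and not to gene length, so levels of different genes are not compared.

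Libraries held 1855174 to 20349500 counts in genes. Library names divided them into 8 numbered libraries with at least 10585625 counts and 24 plain ones with at most 5993637, and 6 of the 8 numbered ones came from High AS pigs. This division, called library set, was therefore a term in each model. The 4 libraries of lane 7 were all numbered and all High AS, and for them lane and AS cannot be told apart; the numbered libraries of lane 6 were 2 High AS and 2 Low AS. The tissue label held against its markers: all 18 spermatocyte markers, 14 round spermatid markers and 19 elongating spermatid markers with an identifier were detected in all 32 pigs, as were 9 of 15 spermatogonial markers. In bulk tissue, fewer cells of a type and less RNA per cell cannot be told apart.

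One testis stood apart from the rest. In the pig Low AS chicory replicate 1 the summed level of the spermatogonial markers was 371 CPM, against 140.3 to 258 in the other 31 pigs. Its round spermatid markers summed to 1788 CPM, against 3715 to 7421 in the others, and its elongating spermatid markers to 5452 CPM, against 20649 to 77600. Its spermatocyte markers summed to 1498 CPM (others 1620 to 2536) and its Sertoli cell markers to 6448 CPM (others 991 to 4463). It thus had the highest spermatogonial and Sertoli sums and the lowest spermatocyte and spermatid sums of the 32. These sums are not independent: CPM are shares of a library, and DMRT1 is named in both the spermatogonial and the Sertoli list. The mean log2 level over a list weighs each marker alike. By this mean the pig was outside the others for spermatogonia (3.1 against 1.68 to 2.28), round spermatids (6.33 against 7.33 to 8.48) and elongating spermatids (7.5 against 9.23 to 11.01). By that measure it was inside their range for spermatocytes (5.77 against 5.62 to 6.4) and Sertoli cells (4.35 against 3.13 to 4.41). Its library was also the extreme one: it had the fewest counts in genes (1855174, against at least 2268778), the fewest genes detected (14999, against at least 15303) and the highest share of reads outside genes (39.63%, against at most 35.99%). Its shares of unaligned reads (6.02%) and of reads with several alignments (5.0%) were the lowest. The part of library quality in its levels was not tested. This is a single pig, so what follows about it carries no test, and the AS results are given below with and without it.

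The replication members were mostly high in this testis. Of the 15, 7 were at their highest of the 32 pigs and 2 at their lowest, where 21.5% of all tested genes were at their highest and 27.9% at their lowest in this pig. CDCA7, a partner of the chromatin remodeller HELLS, reached 61.0 CPM against 8.62 to 19.7 in the others. MCM3, a subunit of the replicative helicase, reached 43.6 CPM against 5.61 to 20.3, and MCM4, another subunit, 57.2 CPM against 14.8 to 32.5. Both therefore lay well clear of every other pig. MCMBP, which binds free MCM subunits, stood at 126 CPM against 16.5 to 55.8. MCM2 stood at 31.4 CPM against 9.35 to 24.9 and CDC6, a loader of the helicase, at 17.8 CPM against 4.26 to 12.4. The role was not uniform: MCM5 at 9.38 CPM and ORC6 at 16.9 CPM were within the range of the others, and the origin-binding ORC1 and ORC2 were the lowest of 32 at 18.8 and 2.35 CPM. ORC1 ran from 22.4 to 47.8 CPM and ORC2 from 6.07 to 18 CPM in the other pigs. The median difference of the 15 members from the middle of the other 31 pigs was 0.611 on the log2 scale.

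The G1 kinase and the E cyclins split. CDK4, the partner of the D-type cyclins, was at 78.8 CPM against 21.6 to 63.6 in the others, and CCNE2 at 36.1 CPM against 5.35 to 28.5. CCNE1, the other cyclin E gene, was the lowest of the 32 at 30 CPM, just under the next pig at 30.2 CPM. CDK1, the kinase of the G2 to M step, also had its highest level here, 112 CPM against 31.8 to 88.3.

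Of the 5 tested meiotic members, 4 went the other way in this pig. CCNA1, the A-type cyclin that mouse spermatocytes need for the first meiotic division, was at 37.5 CPM against 54.9 to 171 in the others. MCM9, which with MCM8 acts in recombination repair, was at 0.469 CPM, a single read, against 2.5 to 10.2, and MCM8 at 33.8 CPM against 33.9 to 104. KIF2B, a microtubule-depolymerising kinesin, was at 43.6 CPM against 145 to 615, a log2 difference of -3.02 from the median. All 4 were the lowest of 32. The fifth tested member of that role, CCNB1IP1, a crossover factor in mouse meiosis, was by contrast the highest, at 23.9 CPM against 2.13 to 14.3. CCNB3, the sixth and too low to test, was at 2.81 CPM, within the range of 0.784 to 3.94 of the others.

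Segregation and G2 to M members were on the whole low in this pig. Of the 19 segregation members 9 were at their lowest in this pig and 1, the checkpoint protein BUB3, at its highest, with a median log2 difference of -0.864. KIF2C, a kinesin that corrects faulty kinetochore attachments, was at 95.7 CPM against 255 to 589, and AURKB, the kinase of the chromosomal passenger complex, at 17.8 CPM against 25.6 to 69. Of the 11 G2 to M members 4 were at their lowest (CDC14A, CDC25B, PLK1 and CDC20), and CDK1 was the single one at its highest. PLK1 was at 84.9 CPM against 111 to 252, and CDC20, the activator of the anaphase-promoting complex, at 132 CPM against 173 to 344. TOP2A, the topoisomerase of dividing cells, was at 299 CPM, inside the range of 197 to 559.8. Transport kinesins had 9 of 19 lowest, 2 highest and a median log2 difference of -0.914. Over all 101 members tested, 20 (19.8%) were highest and 38 (37.6%) lowest in this pig.

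**Figure D1:**
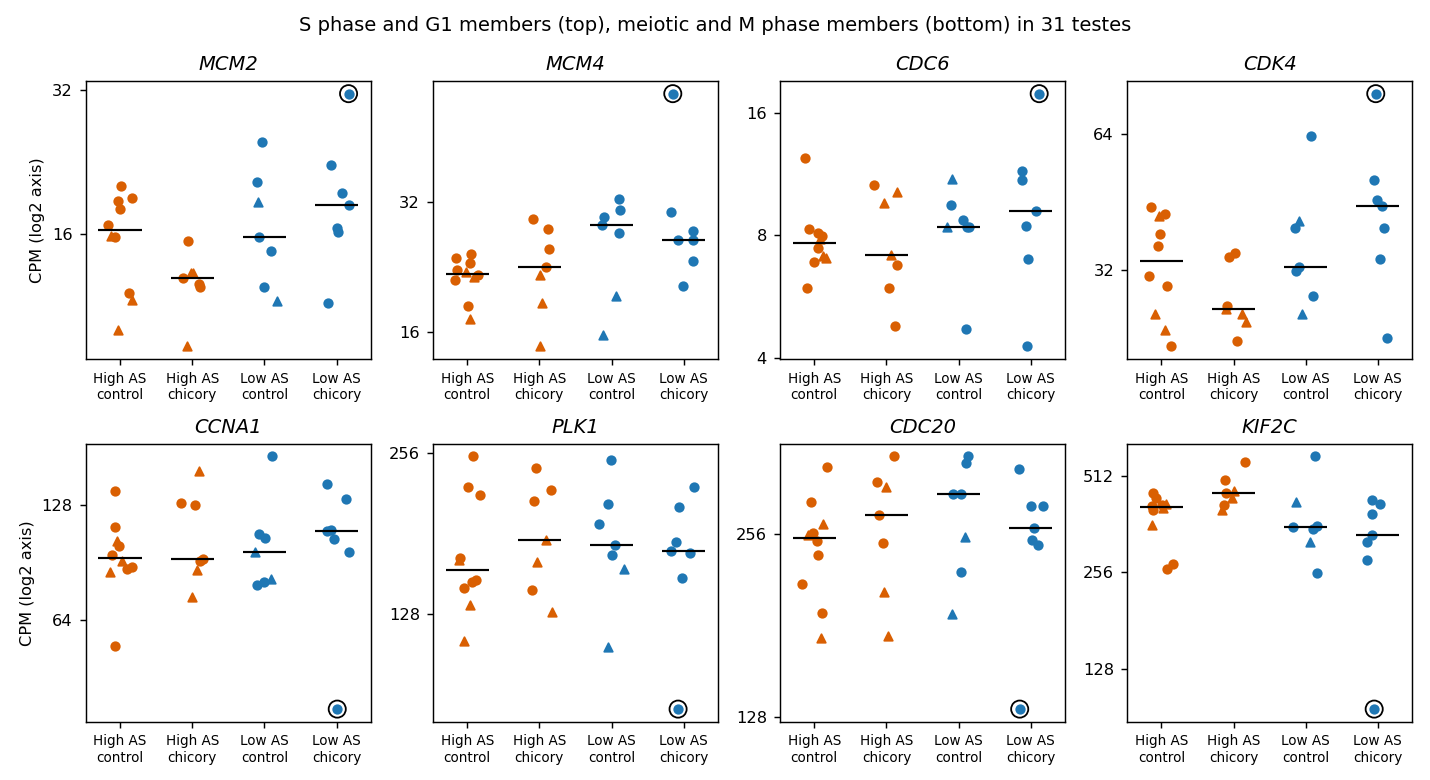
Levels of 8 members in the 31 pigs with an AS group, in CPM on a log2 axis; each point is 1 pig, bars are group medians, triangles are numbered and circles plain libraries, orange is High AS and blue Low AS. The ringed pig, Low AS chicory replicate 1, is the highest for MCM2, MCM4, CDC6 and CDK4 and the lowest for CCNA1, PLK1, CDC20 and KIF2C.

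**Figure D2:**
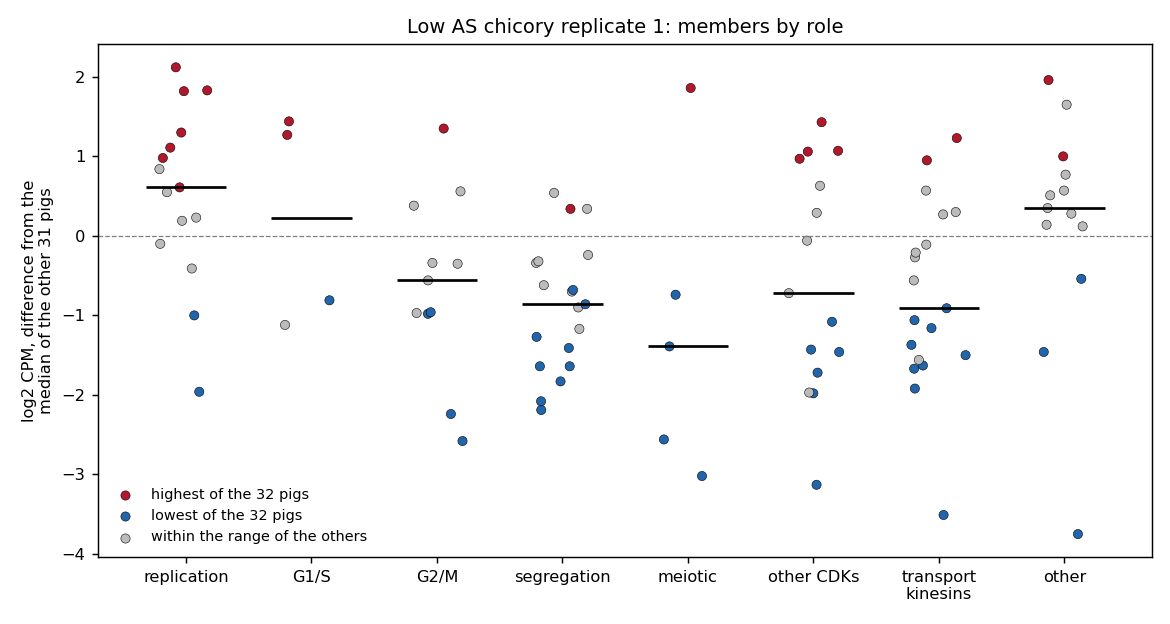
Log2 difference of Low AS chicory replicate 1 from the median of the other 31 pigs for the 101 tested members, by role; each point is 1 member, bars are role medians, and red and blue mark members at their highest and lowest of the 32 pigs. The replication median is 0.611, and the medians of the meiotic and segregation members are -1.393 and -0.864.

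A second pig, High AS control replicate 3, was near an even share over all genes, which is 1 gene in 32 for each of 32 pigs. Of all tested genes, 27.9% were at their lowest in Low AS chicory replicate 1 and 3.69% in this pig. The shares at their highest were 21.5% and 2.7%. These shares were not counted for the other pigs. The fits described as without the pigs that stood apart leave out these 2 pigs, although the second did not stand apart over all genes. Of the 101 members, High AS control replicate 3 had the lowest level of 8 (7.92%) and the highest of 1, KIF19 (0.99%). The 8 included BUB1 at 8.15 CPM (others 14.5 to 53), BUB1B at 1.67 CPM (others 4.11 to 19.6), TOP2A at 197 CPM (others 250.2 to 559.8) and CCNB2, a B-type cyclin, at 52 CPM (others 55.4 to 183). BUB1 and BUB1B were thus lowest in the same pig. Its library was numbered and of lane 7, and BUB1 and TOP2A were lower in numbered libraries, as given below. The part of library set in these levels was not tested.

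Spread among pigs differed widely between members. The SD of log2 CPM over the 32 pigs was smallest for CDC5L, a splicing factor despite its name, at 0.17, for BUB3 at 0.173, for the chaperone partner CDC37 at 0.187 and for KIF2A at 0.194. It was largest among the tested members for CDCA4 at 1.108, CDCP1, a membrane protein, at 0.921, CDK5R1 at 0.877 and KIF21B at 0.866. Leaving out Low AS chicory replicate 1 took CDCA7 from 0.462 to 0.274 and KIF2B from 0.785 to 0.605, while CDK5R1 stayed at 0.838.

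The library sets themselves differed for many members. After adjustment over all genes, 34 of 101 members (33.7%) differed between numbered and plain libraries, where 29.1% of all tested genes did, so the members' share was near the background. Of these 34, 14 were higher and 20 lower in numbered libraries. BUB1 had mean levels of 21.8 CPM in numbered and 35.0 CPM in plain libraries, with a log2 difference of -0.74 (SE 0.20, edgeR adjusted p = 0.00604). The helicase subunits MCM2, MCM3, MCM4 and MCM5 were lower as well, with log2 differences of -0.41, -0.67, -0.46 and -0.63, and so were CDC45, CDK1, PLK1 and TOP2A. MCM8 went the other way, with a mean of 75.4 CPM in numbered and 48.5 CPM in plain libraries and a log2 difference of 0.55 (SE 0.13, edgeR adjusted p = 0.00181). Since most numbered libraries were High AS, AS values within the sets are given below for the main members. Those within the numbered libraries rest on 2 Low AS pigs, both on control diet, and are imprecise.

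The High AS against Low AS comparison asked whether division genes differed between pigs of divergent boar taint. No member passed the test. Of the 111 members 101 passed the filter on low counts, and edgeR's quasi-likelihood test with Benjamini-Hochberg adjustment called 0 of the 101 (smallest adjusted p = 0.988), beside 0% of all 13025 genes tested. At an unadjusted p under 0.05 there were 2 members (1.98%), against 2.3% of all genes. DESeq2 and limma voom also called 0, with 2 and 0 members under the unadjusted threshold. No member had High AS and Low AS pigs that did not overlap, and this was 0% of all genes too. The 10 members that did not pass the filter were CCNB3, CDK15, CDK18, KIF12, KIF13A, KIF26B, KIF3C, KIF5A, KIFC2 and PLK3, with 58 to 282 counts in all, and their levels ranged up to 3.94 CPM in the case of CCNB3.

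The estimates of the replication members lay mostly below 0. Of the 15, 2 were higher and 13 lower in High AS animals (median log2 fold -0.224), while 51.6% of all tested genes were higher and their median was 0.007. Of the spermatogonial markers 2 of 9 were higher, with a median of -0.272, and 19 of 19 elongating spermatid markers were higher, with a median of 0.208. Other marker lists moved too, with 12 of 14 round spermatid (median 0.072), 6 of 9 Leydig (0.42) and 4 of 7 endothelium markers (0.227) higher. The part of cell make-up in the replication values was not tested. Without Low AS chicory replicate 1 the replication median was -0.111 with 3 of 15 higher, that of the spermatogonial markers -0.105, and that of the elongating spermatid markers 0.125. Within the plain libraries the replication median was -0.272 with 1 of 15 higher, and within the numbered libraries -0.054 with 7 of 15 higher. In the numbered libraries 3 of 11 spermatogonial (median -0.182), 4 of 14 round spermatid (-0.062) and 9 of 19 elongating spermatid markers (-0.0) were higher.

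MCM2 (ENSSSCG00000011624) illustrates the overlap of the groups. It ran from 9.35 to 20.2 CPM with a median of 13.3 in the 17 High AS pigs and from 11.5 to 31.4 CPM with a median of 17.4 in the 14 Low AS pigs. Levels, unlike folds, are not adjusted for library set. By level the High AS pigs lay lower on the whole, but most pigs of either group fell in the shared range. The log2 fold was -0.25 (SE 0.14, unadjusted p = 0.0711, edgeR adjusted p = 0.988), and -0.18 without Low AS chicory replicate 1. MCM4 ran from 14.8 to 29.2 CPM (median 22) in High AS and from 15.7 to 57.2 CPM (median 27.3) in Low AS pigs, with a log2 fold of -0.23 (SE 0.12, edgeR adjusted p = 0.988). Without that pig its fold was -0.13, and within the numbered libraries it was 0.21, of opposite sign. CDCA7, whose Low AS range ended at the 61.0 CPM of that pig, had a log2 fold of -0.38 (SE 0.20) with it and -0.14 without it. CDC45 ran from 10.4 to 30.4 CPM (median 18.3) in High AS and from 11.3 to 39.4 CPM (median 24.9) in Low AS pigs, and its fold of -0.26 (SE 0.15) became -0.43 within plain and 0.47 within numbered libraries. The SE within the numbered libraries was 0.35 for CDC45 and 0.28 for MCM4, with 2 Low AS pigs there. The change of sign of these members between library sets is therefore uncertain. MCM5 had a log2 fold of -0.25 (SE 0.15), CDC6 of -0.20 (SE 0.16) and ORC1 of 0.02 (SE 0.12). Without Low AS chicory replicate 1 the CDC6 fold was -0.11, and within the numbered libraries it was -0.40 and that of MCM5 -0.06. MCM2 had -0.27 within either set.

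CDK4 (ENSSSCG00000025092) was the lower member with the smallest p. It ran from 21.6 to 44 CPM (median 29.4) in High AS and from 22.5 to 78.8 CPM (median 39.6) in Low AS pigs, again overlapping. The log2 fold was -0.35 (SE 0.16, unadjusted p = 0.0333, edgeR adjusted p = 0.988), and between -0.41 and -0.25 when each pig was left out in turn. Within the plain libraries it was -0.39 and within the numbered ones -0.13. The E cyclins had folds of -0.15 (SE 0.23) for CCNE2 and -0.005 (SE 0.13) for CCNE1. That of CCNE2 was -0.04 without Low AS chicory replicate 1, 0.20 within numbered libraries and 0.26 with sow as a fixed block.

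The role medians of the meiotic and M phase members were near 0 in the model without sow, while single members lay further to either side. CCNA1 ran from 54.9 to 157 CPM (median 92.6) in High AS and from 37.5 to 171 CPM (median 104) in Low AS pigs, and its log2 fold was -0.01 (SE 0.15). MCM8 had a log2 fold of 0.10 (SE 0.12). The groups covered nearly the same range for PLK1, with medians of 161 and 170.2 CPM and a fold of 0.11 (SE 0.12). The same held for TOP2A, with medians of 342 and 372 CPM and a fold of 0.03 (SE 0.11), and for CDC20, with medians of 255 and 273 CPM and a fold of -0.01 (SE 0.12). Unlike the folds, these medians are not adjusted for library set, and those of PLK1 and TOP2A run opposite to their folds. CCNB1 and CCNB2 had folds of 0.02 (SE 0.12) and 0.04 (SE 0.14), AURKB -0.10 (SE 0.15), KIF11, the kinesin that separates spindle poles, -0.05 (SE 0.11), and BUB1B -0.03 (SE 0.24). Without Low AS chicory replicate 1 the folds of these 10 members ran from -0.16 (AURKB) to 0.08 (MCM8), and that of PLK1 was 0.06. Within plain libraries they ran from -0.23 (BUB1B) to 0.17 (MCM8) and within numbered libraries from -0.49 (AURKB) to 0.46 (BUB1B). CDK1 had a fold of -0.24 (SE 0.15), which was -0.15 without Low AS chicory replicate 1 and 0.08 within the numbered libraries. The median log2 folds were 0.019 for the 11 G2 to M members, -0.011 for the 5 meiotic members and 0.074 for the 19 transport kinesins, 12 of them higher. The 5 meiotic members ran from -0.407 (CCNB1IP1, -0.281 without Low AS chicory replicate 1) to 0.185 (KIF2B). G2 to M members ran from -0.241 (CDK1) to 0.271 (CDC14A) and segregation members from -0.252 (KIFC1) to 0.248 (KIF2C). The kinesin median was 0.039 without Low AS chicory replicate 1, and within the numbered libraries 8 of 24 kinesins were higher with a median of -0.113. The 15 other cyclin-dependent kinases and partners had a median of -0.036 with 6 higher. The 13 tested members in no role list had a median of -0.057 with 3 higher. With sow as a fixed block, which compares pigs of the same sow, more estimates were positive. Higher in High AS pigs were 17 of 19 segregation members (median 0.117), 9 of 11 G2 to M members (0.096) and 5 of 6 meiotic members (0.099). In that fit 54.0% of all tested genes were higher, as were 13 of 14 round spermatid markers (median 0.249) and 19 of 19 elongating spermatid markers (0.293), and 0 members were called. The replication members had 2 of 15 higher and a median of -0.138. A p that missed the threshold does not show that the groups were alike.

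Among members with higher estimates, CDK5R1 (ENSSSCG00000017730) had the smallest p. It encodes an activator of CDK5 that is best known from neurons. It ran from 0.556 to 6.95 CPM (median 2.89) in High AS and from 0.469 to 3.13 CPM (median 1.66) in Low AS pigs. Every Low AS pig lay within the span of the High AS pigs or just below it, and the highest pigs were all High AS. The log2 fold was 0.72 (SE 0.30, unadjusted p = 0.023, edgeR adjusted p = 0.988), between 0.54 and 0.84 with each pig left out in turn. It was the lowest-counted tested member, with 554 counts over 32 pigs. Also on this side were KIF2C (log2 fold 0.25, SE 0.15), CDC14A, a phosphatase that counters CDK1 (0.27, SE 0.17), CDC5L (0.13, SE 0.08) and CDCA2, a chromatin-bound regulator of phosphatase activity (0.22). Within the numbered libraries the folds were 0.08 for KIF2C, 0.02 for CDC14A, 0.16 for CDC5L and -0.03 for CDCA2, and CDK5R1 had 0.74. In the plain libraries alone CDK5R1 did not pass the filter on low counts.

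Cell cycle genes outside the name families were counted in the same way. Of 54 tested genes from a list of replication factors, checkpoint kinases, kinetochore proteins and CDK inhibitors, 16 were higher and 38 lower in High AS animals (median log2 fold -0.074), and 0 were called. The smallest p values were those of POLA2, a subunit of the primase complex (log2 fold -0.35, SE 0.13), RFC3, a clamp loader subunit (-0.34, SE 0.14), and ANAPC4, of the anaphase-promoting complex (-0.34, SE 0.15). Without Low AS chicory replicate 1 the median of the list was -0.036. Within the plain libraries 15 of the 54 were higher with a median of -0.123, and within the numbered ones 27 with 0.002. With sow as a fixed block 24 were higher, with a median of -0.039.

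**Figure D3:**
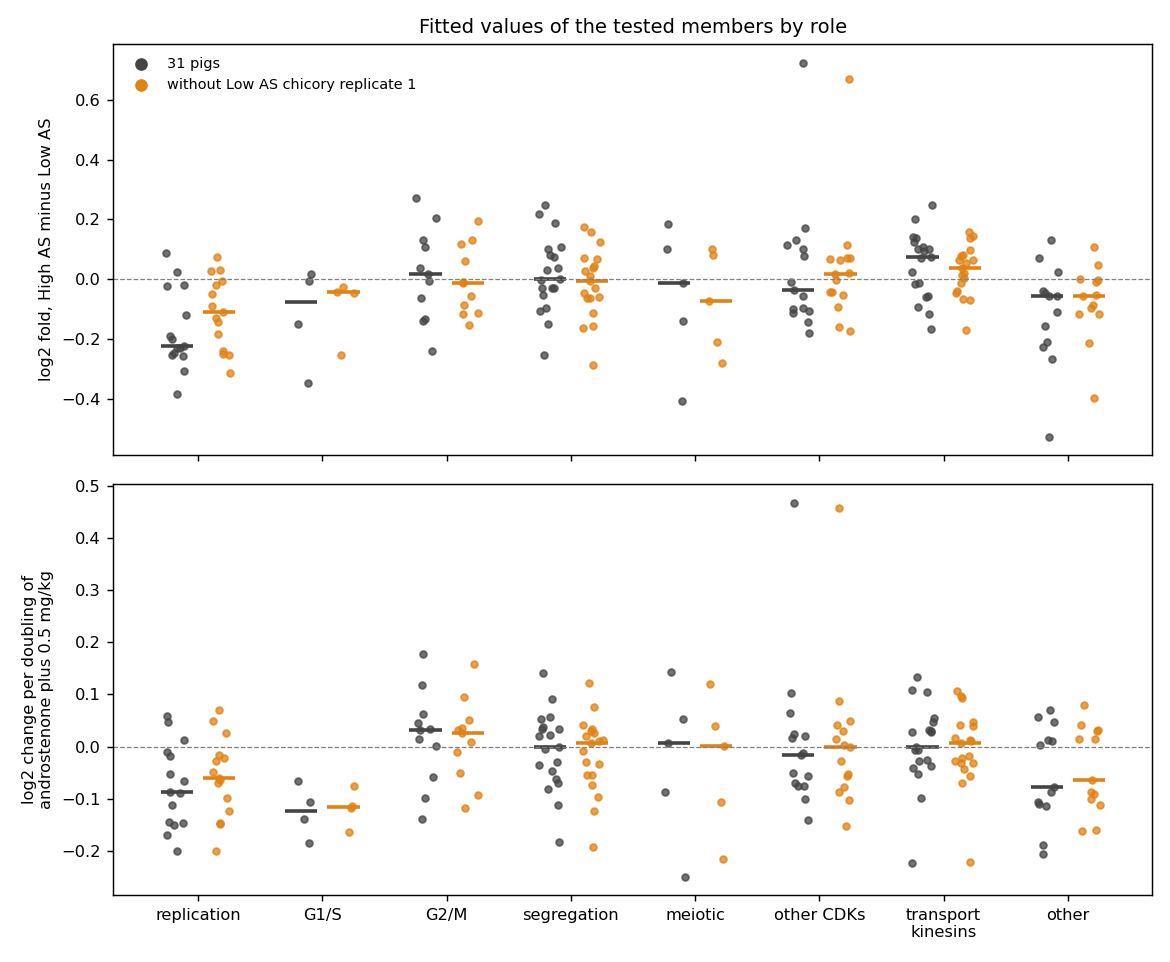
Fitted values of the 101 tested members by role, for High AS minus Low AS (upper panel, log2 fold) and per doubling of androstenone plus 0.5 mg/kg (lower panel, log2 change); points are members, bars are role medians, grey is the fit to 31 pigs and orange the fit without Low AS chicory replicate 1. The replication median for AS moves from -0.224 to -0.111 without that pig, and CDK5R1 is the uppermost point in both panels.

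The androstenone comparison used the concentration itself. Slopes are in log2 units for each doubling of androstenone plus 0.5 mg/kg. It shares its pigs with the AS comparison, so the results of both are not separate evidence. Again no member passed: edgeR called 0 of 101 (smallest adjusted p = 0.769), beside 0.0227% of 13199 genes tested. At an unadjusted p under 0.05 there were 5 members (4.95%), against 5.06% of all genes. DESeq2 and limma voom called 0 members as well, with 7 and 3 under the unadjusted threshold. Over the 101 members 44 slopes were positive and the median was -0.013, against a median of -0.007 over all genes.

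CDK5R1 had the steepest positive slope, 0.47 (SE 0.13, unadjusted p = 0.000932, edgeR adjusted p = 0.769). The slope stayed between 0.34 and 0.55 with each pig left out in turn, the lowest value being without High AS control replicate 10. Over the alternatives its smallest adjusted p was 0.316. CDC14A had a slope of 0.18 (SE 0.08, edgeR adjusted p = 0.852), which was 0.02 within the numbered libraries. KIF2C followed at 0.14 (SE 0.07), KIF19, a kinesin that sets the length of motile cilia in mouse, at 0.11 (SE 0.05), and CDK16 at 0.10.

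On the negative side the smallest p values were those of ORC6, KIF7 and CDC45. ORC6, a subunit of the origin recognition complex, had levels of 8.25 to 27.1 CPM (median 18) in High AS and 10.1 to 32.1 CPM (median 19.7) in Low AS pigs, and a slope of -0.15 (SE 0.07, unadjusted p = 0.0373, edgeR adjusted p = 0.852). Within the numbered libraries the ORC6 slope was -0.05. KIF7, a ciliary kinesin of Hedgehog signalling, had a slope of -0.22 (SE 0.11) and CDC45 one of -0.15 (SE 0.07), both with an edgeR adjusted p of 0.852. CDC45 turned to 0.07 with sow as a block. CDK1 and CDK4 both had slopes of -0.14 (SE 0.07 and 0.08).

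By role, 3 of 15 replication members had a positive slope, with a median of -0.087, where 47.1% of all tested genes had one. This median was -0.060 without Low AS chicory replicate 1. Within the numbered libraries 7 of 15 were positive with a median of -0.01, and within the plain ones 2 of 15 with -0.088. All 4 of the G1 to S members had a negative slope, with a median of -0.123. With sow as a fixed block 2 of these 4 were positive, with a median of 0.016. The G2 to M members had 8 of 11 positive with a median of 0.032, the meiotic members 3 of 5 with a median of 0.006, and the segregation members 9 of 19 with a median of -0.001. Beside these, 1 of 9 spermatogonial markers and 19 of 19 elongating spermatid markers had positive slopes, with medians of -0.115 and 0.139. Leydig markers had 7 of 9 positive with a median of 0.213, and the part of cell make-up in the members' slopes was not tested. Of the 54 other cell cycle genes 15 had positive slopes. There 7 passed an unadjusted p under 0.05, where 5.06% of all genes did, all negative (POLA2, RFC5, RFC3, ANAPC4, RB1, TFDP1 and CHEK1), and 0 were called. That count was 4 in plain and 1 in numbered libraries, 2 with carcass weight added and 0 with sow as a fixed block.

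**Figure D4:**
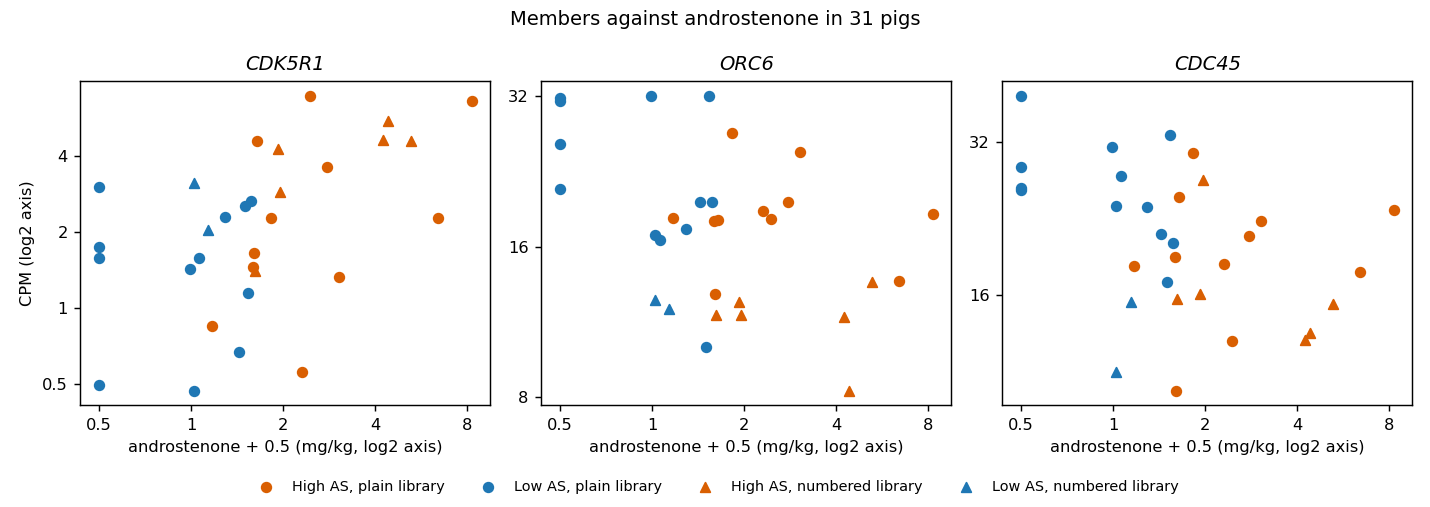
CPM of CDK5R1, ORC6 and CDC45 against androstenone plus 0.5 mg/kg in 31 pigs, both axes log2; colour gives the AS group and triangles mark numbered libraries. The fitted slopes are 0.47, -0.15 and -0.15, and most numbered libraries lie low for ORC6 and CDC45.

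The diet comparison asked whether the short chicory feeding moved these genes. It called 0 of 101 members (smallest edgeR adjusted p = 1.0), beside 0.00768% of all 13025 genes. There were 0 members at an unadjusted p under 0.05, against 0.875% of all genes, and DESeq2 and limma voom also found 0 at either threshold. The median log2 difference, chicory minus control, was 0.008 over the members and 0.005 over all genes, and 53 of 101 members were higher on chicory.

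The smallest p among members was that of ORC2. It ran from 2.35 to 14 CPM (median 8.89) in 14 chicory pigs and from 8.55 to 18 CPM (median 10.8) in 17 control pigs, with a log2 difference of -0.25 (SE 0.14, unadjusted p = 0.0833, edgeR adjusted p = 1.0). The ranges overlapped, and the lowest chicory pig was Low AS chicory replicate 1, without which the difference was -0.19. CDK9, the kinase that releases paused RNA polymerase, ran from 26.3 to 68.5 CPM (median 37.1) on chicory and from 17.6 to 40.9 CPM (median 34.7) on control diet, with a difference of 0.20 (SE 0.12), and 0.13 without that pig. CDK5R1 had a log2 difference of 0.44 (SE 0.30), which was -0.34 within the numbered libraries. Among M phase genes, TOP2A had medians of 359 and 340.2 CPM, CDC20 of 268 and 255 CPM, and PLK1 of 171 and 163 CPM on chicory and control diet. These medians are not adjusted for library set. The fitted log2 differences were -0.002 for CDC20 and 0.001 for PLK1. Of the 11 G2 to M members 10 were higher on chicory, with a median of 0.061. This was 6 of 11 within plain libraries, and with sow as a block it was 4 of 11 with a median of -0.033. Of the 15 replication members 7 were higher, with a median of -0.013. Of the 19 transport kinesins 5 were higher, with a median of -0.03. Without Low AS chicory replicate 1 it was 10 of 19 with a median of 0.002, and in numbered libraries 18 of 24 with a median of 0.121. Of the segregation members 11 of 19 were higher, with a median of 0.017. Without Low AS chicory replicate 1 the replication count was 5 of 15 and the median -0.096. Of the 54 other cell cycle genes 38 were higher on chicory, with a median of 0.068, and this was 31 with a median of 0.015 without that pig.

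The last comparison asked whether the AS difference changed with diet. The interaction is the log2 fold of High AS over Low AS on chicory minus that on control diet. It called 0 of 101 members (smallest edgeR adjusted p = 0.951), beside 0% of all genes, with 3 members (2.97%) at an unadjusted p under 0.05 against 3.63% of all genes. DESeq2 and limma voom called 0 too, each with 3 under that threshold. CDC16, a subunit of the anaphase-promoting complex, had medians of 21.0 and 36.7 CPM in High AS and Low AS pigs on chicory and of 27.1 and 24.3 CPM on control diet. Its interaction was -0.59 (SE 0.24, unadjusted p = 0.0199, edgeR adjusted p = 0.951). KIF20A, a kinesin of cytokinesis, had medians of 49.6 (High AS) and 46.9 CPM (Low AS) on chicory and of 42.3 and 47.5 CPM on control diet, with an interaction of 0.41 (SE 0.18). MCMBP had an interaction of -0.92 (SE 0.41), which was -0.40 without both pigs that stood apart. Replication members had 3 of 15 positive and a median of -0.185, and without those pigs 5 of 15 and -0.092. The 19 transport kinesins had 15 positive and a median of 0.151, and without those pigs 10 positive and a median of 0.0. Among cell markers, 19 of 19 elongating spermatid (median 0.331), 12 of 14 round spermatid (0.137) and 2 of 13 Sertoli markers (-0.507) had positive interactions. Endothelium had 2 of 7 positive (-0.668), peritubular cells 3 of 8 (-0.285) and Leydig cells 6 of 9 (0.088). Without both pigs the elongating, round spermatid and Sertoli counts were 18 of 19 (0.12), 6 of 14 (-0.018) and 5 of 13 (-0.107). Those of endothelium, peritubular and Leydig cells were 2 of 7 (-0.636), 5 of 8 (0.046) and 7 of 9 (0.147). The part of cell make-up in the members' interactions was not tested.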

How the data were processed

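Deposited values are whole-number read counts per Ensembl gene identifier, 1 table per pig, not normalized by the authors. Per the submitters' processing notes, HTSeq 0.6.0, STAR, Trimmomatic 0.33, SAMtools 1.3.1 and cutadapt 1.8.1 were used. Build, annotation and strand setting are not given in the sources used here. Reads of overlapping or antisense genes can therefore not be told apart. The 5 rows that name no gene stayed out; reads outside genes made up 20.58% to 39.63%. No pair of libraries of a group agreed within sampling noise (smallest chi-square per degree of freedom 7.24 of 108 pairs).

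Genes were filtered with filterByExpr, scaled by TMM and tested with edgeR 4.0.16 (R 4.3.3) by the quasi-likelihood F test with Benjamini-Hochberg adjustment at 0.05 over all tested genes. AS and diet came from a model of AS, diet and library set in 31 pigs; androstenone replaced AS as log2 of mg/kg plus 0.5. SE is the estimate over the square root of F. CPM is scaled by TMM. DESeq2 1.42.0 and limma 3.58.1 were alternatives, as were other filters, covariates and left-out pigs. The steps were tested on simulated data. Members, role lists and markers were chosen with earlier results of these data known. Genes named are a list of core cyclins, kinases and replication genes and, per comparison, the 5 higher and 5 lower members with the smallest p; the members described in the pigs that stood apart, of spread and of library set were chosen after their values were seen. No sequence was printed because the reference tables used here hold none.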

Additional observations from a re-analysis of the deposited data

Results flagged for a closer look

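In groups of 7 to 10 pigs, a pig was singled out when its gap to the nearest other pig was a large part of the group's range (Dixon's test at 95%). Of 188 combinations of 47 named members and 4 groups, 24 were singled out, and chance gives about 1 in 20. The same share over all genes was not counted, and some of these members were named for their small p in these data. The count is therefore not read as particular to the members. Of the 24, 9 came from Low AS chicory replicate 1. In that pig 21.5% of all tested genes were at their highest of the 32 pigs and 27.9% at their lowest.

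In that pig CDCA7 stood at 61.0 CPM (11.8 to 16.1 in the rest of its group), MCM4 at 57.2, MCMBP at 126, CDK9 at 68.5, CDK2AP2 at 53.5, CDC37L1 at 62.9 and KIF13B at 33.3 CPM, all high. CDC20 at 132 CPM (246 to 328 in the rest) and ORC1 at 18.8 CPM (34.9 to 45.5) were low.

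The other 15 were spread over the groups. CDCA4 was high in a single pig of each of 3 groups, at 17.4 CPM in High AS chicory replicate 5, 16.8 in High AS control replicate 3 and 11.2 in Low AS control replicate 3. KIF7 was high at 9.3 CPM in High AS control replicate 5 and 7.14 in Low AS control replicate 1. CDC6 was high at 12.4 CPM in High AS control replicate 9 and low at 4.71 in Low AS control replicate 4. Low AS control replicate 5 was high for CCNA1 at 171 CPM (79.1 to 107 in the rest), CDK4 at 63.6 and ORC5 at 7.74. Low AS control replicate 3 was also high for CDK2AP2 at 40.3 CPM and KIF19 at 67.7. AURKB reached 69.0 CPM in High AS control replicate 1, CDC5L 253 CPM in High AS chicory replicate 2 and KIF18B 8.86 CPM in Low AS control replicate 1.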

How the results depend on the processing

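Replicate numbers only name the pigs and link none across groups. As 7 sows had pigs in both AS groups, the fit with sow as a fixed block is the comparison within sows. The count of members called was 0 in each comparison under all 42 alternatives for AS, 44 for androstenone, 42 for diet and 8 for the interaction. The median log2 fold over members ranged from -0.062 to 0.035 for AS (main -0.022), from -0.028 to -0.001 for androstenone (main -0.013; the rank and untransformed scales have other units) and from -0.035 to 0.061 for diet (main 0.008), within 1 SD of the spread between pigs, 0.089. With each pig left out the ranges were -0.046 to -0.005, -0.025 to -0.003 and -0.013 to 0.025. For replication members the AS median was -0.235 with no library set term, -0.211 with carcass weight and -0.138 with sow as a block. Named members gave 1133 AS values, of which 1017 kept their sign and side of the threshold; the counts were 1189 of 1232 for androstenone, 1095 of 1175 for diet and 205 of 216 for the interaction. The cause of the sign changes was not tested. Plain libraries held few counts, which limits low members such as CDK5R1 most.

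Among AS folds, the sign changed as follows. With relative log expression factors the value was BUB1 0.00023. With limma voom the values were CCNA1 0.004, CCNE1 0.004, CDC20 0.005. With a filter of 1 CPM in 7 libraries the values were CCNE1 0.00014, BUB1 0.002. With no library set term the values were TOP2A -0.048, CCNB1 -0.034, CCNB2 -0.049. In plain libraries only the values were TOP2A -0.042, CCNB1 -0.079, CCNB2 -0.093, ORC1 -0.02. In numbered libraries only the values were CCNA1 0.065, CCNE2 0.2, CDK1 0.081, CDC20 0.063, MCM8 -0.079, BUB1B 0.462, CDCA2 -0.032, MCM4 0.205, CDC45 0.469. Without the 2 pigs that stand apart the values were CCNB1 -0.007, ORC1 -0.011. With carcass weight added the values were CCNE1 0.019, ORC1 -0.084, BUB1 0.074, BUB1B 0.061, KIF11 0.004. With sow as a fixed block the values were CCNA1 0.078, CCNE1 0.179, CCNE2 0.264, CDK1 0.031, CDC20 0.037, BUB1 0.13, BUB1B 0.22, KIF11 0.008.

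Among androstenone slopes, the sign changed as follows. With no low-count filter the value was CCNB2 -0.002. With no library set term the values were CCNB1 -0.001, CCNB2 -0.04. In plain libraries only the values were CCNB1 -0.017, CCNB2 -0.021, MCM8 -0.015. In numbered libraries only the values were CDK4 0.002, MCM5 0.031. With carcass weight added the values were MCM8 -0.016, AURKB -0.01. With sow as a fixed block the values were TOP2A 0.011, CCNE2 0.064, AURKB -0.096, BUB1 0.046, BUB1B 0.016, CDK16 -0.033, CDC45 0.072. On the rank of the concentration the values were TOP2A 0.001, MCM8 -0.00024. On the untransformed concentration the values were CCNB2 -0.00051, MCM5 0.023.

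Among diet differences, the sign changed as follows. With limma voom the value was PLK1 -0.013. With no low-count filter the value was PLK1 -0.005. With a filter of 1 CPM in 7 libraries the value was PLK1 -0.00029. With no library set term the value was CDC20 0.01. In plain libraries only the values were CCNB1 -0.042, CCNB2 -0.071, CCNE1 -0.08, CDK1 -0.019, CDK4 0.003, PLK1 -0.058, KIF11 -0.063. In numbered libraries only the value was CDK5R1 -0.338. Without the 2 pigs that stand apart the values were CCNE2 -0.002, CDK1 -0.046, CDC6 -0.001, CDC20 0.067, KIF11 -0.036. With carcass weight added the value was CDC20 0.023. With sow as a fixed block the values were CCNA1 -0.006, CCNB2 -0.026, CCNE1 -0.179, CDK4 0.224, MCM2 0.08, ORC1 -0.124, AURKB -0.056, PLK1 -0.214, CDK5R1 -0.088, ORC5 0.132.

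Among interaction values, the sign changed as follows. With limma voom the values were TOP2A 0.059, BUB1B 0.051. With no library set term the values were CCNB1 -0.015, CCNB2 -0.032, ORC1 -0.009. In plain libraries only the values were ORC1 -0.003, KIF11 -0.056. Without the 2 pigs that stand apart the values were CCNB1 -0.013, CCNB2 -0.098, MCM8 -0.015, ORC1 -0.086.

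With each of 31 pigs left out in turn, the sign changed for AS folds of TOP2A (-0.019 to 0.073), CCNA1 (-0.071 to 0.069), CCNB1 (-0.016 to 0.071), CCNB2 (-0.029 to 0.097), CCNE1 (-0.07 to 0.063), CDC20 (-0.055 to 0.025), ORC1 (-0.018 to 0.056), BUB1 (-0.052 to 0.044), BUB1B (-0.119 to 0.04); androstenone slopes of TOP2A (-0.053 to 0.005), CCNB2 (-0.018 to 0.027), MCM5 (-0.072 to 0.052), MCM8 (-0.023 to 0.02), KIF11 (-0.051 to 0.004); diet differences of CCNB1 (-0.001 to 0.121), CCNE1 (-0.081 to 0.052), CDK1 (-0.032 to 0.12), CDK4 (-0.133 to 0.024), CDC20 (-0.056 to 0.049), PLK1 (-0.033 to 0.054), KIF11 (-0.034 to 0.043).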
